A study of Mus musculus with 98 samples.

Results

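The DNA ends described here are short 5' overhangs that lie far inside a chromosomal recombination substrate cut by the RAG recombinase in mouse pre-B cells. In such an end the 3'-ending strand is the shorter one, by 1 to 9 nt, and stops 20 nt or more inside the cut, placed here at the lowest position of any end. The members were chosen from 2 measured values of each end, its overhang and its position, in the tables of 6 cell lines. They numbered 455 of the 2454 distinct end structures at the substrate, and the 12 tables used here held 8352 entries in all.

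The ends were read by HCoDES, a method in which the 2 strands of each end are joined to a hairpin by a ligase for single-stranded DNA. Bisulfite, PCR and paired sequencing then show where each strand stopped. All 6 lines were Abelson-transformed pre-B cells that lacked DNA ligase IV (Lig4-/-), the enzyme that seals ends in non-homologous end joining, so breaks persist. The 2 Lig4-/- lines, A and B, lacked only that gene as far as the labels say. The 2 H2AX-/- lines, 5 and 8, also lacked the histone variant H2AX, and the 2 53BP1-/- lines, B and C, also lacked the damage response protein 53BP1. The labels give a time of 48 h for Lig4-/- lines A and B, H2AX-/- line 8 and 53BP1-/- line B, and none for H2AX-/- line 5 or 53BP1-/- line C. They tag Lig4-/- line B and 53BP1-/- line C with shNT, which they do not explain. The strain is not given in the sources used here, nor is it said whether a line is 1 clone. The tables list DNA ends only, so the genotypes were taken from the labels.

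RAG cuts between a gene segment and its recombination signal, and leaves a coding end closed as a hairpin and a blunt signal end. Which of these the substrate tables hold is not given in the sources used here. The side of the cut that the distances run into is therefore unknown. Ligase IV normally joins these ends in G1. In its absence they persist, and H2AX and 53BP1 are known to protect persisting ends from nucleases such as those that CtIP activates. Resection in the usual sense removes the 5'-ending strand and leaves a 3' overhang. A 5' overhang has the opposite polarity, since the 3'-ending strand is the one that is further cut back.

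Each table pooled 3 libraries, so the cell line was the replicate, with 2 lines per genotype. Reads per table ran from 72923 to 337917. Lines A and B of Lig4-/-, line 5 of H2AX-/- and line B of 53BP1-/- were sequenced in run 4, line 8 of H2AX-/- in run 2 and line C of 53BP1-/- in run 6. One library of 53BP1-/- line C has a title that also names H2AX-/- line 5, and its description says that another PCR's reads were mixed in. Results are therefore also given without line C where it changes them. In a KpnI-cut control, whose known end is a 3' overhang, short 5' overhangs anywhere held 0.232% of 307425 reads (95% Clopper-Pearson interval 0.215 to 0.249). Those 20 nt or more inside the KpnI end held 0.0546% (0.0467 to 0.0636). The control's reads too were sequenced in a mix with substrate reads and separated by primer, per its label, and how completely was not tested. The labels describe no molecular identifiers and 1 molecule can give many reads, so all such intervals cover counting error only.

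The first comparison asked how large a part of all broken ends this class made up in each genotype. Far short 5' overhangs held a larger part of reads in both H2AX-/- lines than in either Lig4-/- line. They held 9.95% of reads in Lig4-/- line A (9.85 to 10.05) and 11.7% in line B (11.5 to 11.8). They held 27.5% in H2AX-/- line 5 (27.2 to 27.9) and 31.7% in line 8 (31.4 to 32.0). In 53BP1-/- line B they held 36.6% (36.4 to 36.8), the highest share of the 6 lines, and in line C 13.3% (13.1 to 13.4). The H2AX-/- lines stood well apart from the Lig4-/- lines, whereas the 53BP1-/- lines lay on either side of the H2AX-/- lines, with line C just above the Lig4-/- lines. All 6 shares were far above the 0.0546% of the KpnI control.

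The H2AX-/- mean was 29.6% ± 2.95 (SD, n = 2) and the Lig4-/- mean 10.8% ± 1.22 (SD, n = 2), a difference of 18.8 percentage points. The smallest gap between lines of the 2 genotypes, 15.9 points, was larger than the largest gap within a genotype, 4.17 points. The 53BP1-/- mean was 24.9% ± 16.5 (SD, n = 2), 14.1 points above Lig4-/-. Here the smallest gap, 1.59 points, was far smaller than the 23.3 points between lines B and C. Without line B the 53BP1-/- difference was 2.45 points, and without line C, the line with the mixed library, it was 25.8 points. With every structure given equal weight, whatever its reads, the differences were 6.88 points for H2AX-/- and 4.81 points for 53BP1-/-. In run 4 alone the difference was 16.7 points for H2AX-/- line 5 and 25.8 points for 53BP1-/- line B. In a two-sided exact permutation test both comparisons gave p = 0.333, the smallest value that 2 lines against 2 allow (adjusted p = 0.5 over 6 comparisons).

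**Figure D1:**
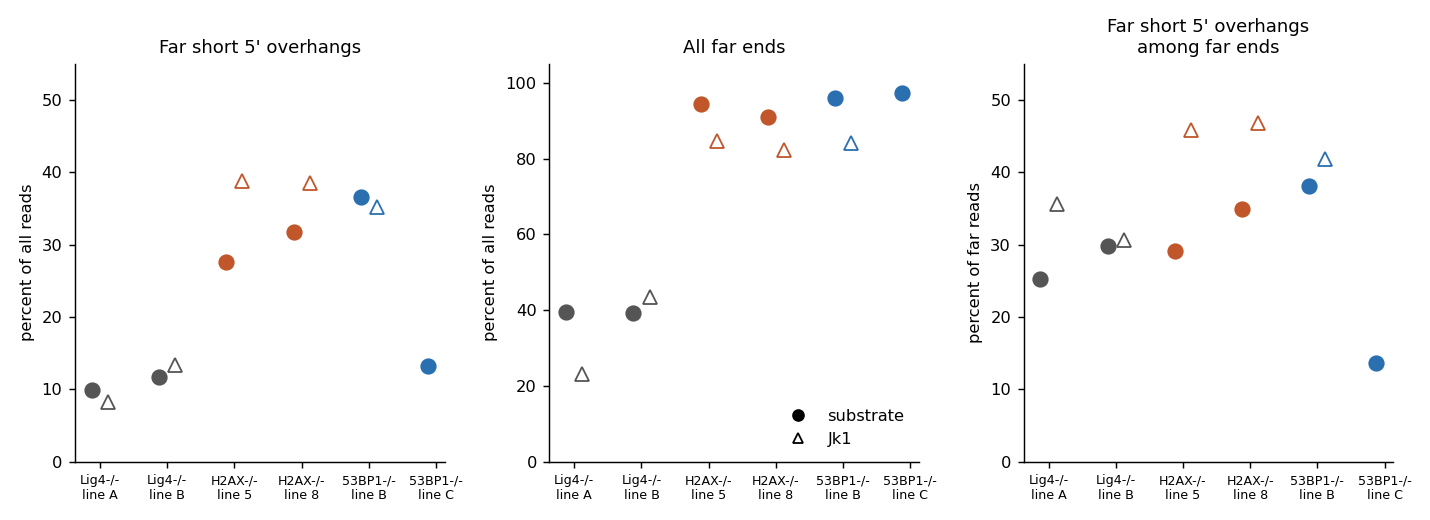
Share of reads (percent, linear axes) by line at the substrate (filled circles) and at Jk1 (open triangles), each point 1 table; the 3 panels show far short 5' overhangs among all reads, all far ends among all reads, and far short 5' overhangs among far ends. The H2AX-/- points sit at 27.5% and 31.7% in the left panel, above both Lig4-/- points, but the filled circles of these genotypes overlap in the right panel; 53BP1-/- line C has no Jk1 point.

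The share of all reads depends on how many ends of any kind lay far inside. Ends of every overhang that reached 20 nt or more made up 39.4% and 39.2% of reads in Lig4-/- lines A and B, 94.5% and 90.9% in H2AX-/- lines 5 and 8, and 95.9% and 97.2% in 53BP1-/- lines B and C. Counted among these far ends alone, short 5' overhangs held 25.2% and 29.8% in the Lig4-/- lines, 29.2% and 34.9% in the H2AX-/- lines, and 38.2% and 13.6% in the 53BP1-/- lines. The genotypes overlapped on this scale. The H2AX-/- mean exceeded the Lig4-/- mean by 4.51 points (exact permutation p = 0.667, adjusted p = 0.8) and the 53BP1-/- mean differed by -1.61 points (p = 1, exact). Without 53BP1-/- line C the latter difference was 10.7 points, and without line B it was -13.9 points.

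The class was thus 13.6 to 38.2% of far ends in all 6 lines, and the lowest and highest values both came from 53BP1-/- lines. The other far ends differed too. Short 3' overhangs of 1 to 9 nt held 12.4% of far ends in 53BP1-/- line B, against 31.9 to 37.3% in the other 5 lines. Longer 5' overhangs of 10 nt or more held 22.8% and 26.6% of far ends in 53BP1-/- lines B and C, against 2.04 to 8.24% in the 4 other lines. In line C these longer 5' overhangs outnumbered the short ones.

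Seen from the other side, short 5' overhangs at the substrate were mostly far ones when H2AX or 53BP1 was absent. Of all reads with a 5' overhang of 1 to 9 nt, those 20 nt or more inside made up 56.9% and 51.2% in Lig4-/- lines A and B. In contrast they made up 94.5% and 93.5% in H2AX-/- lines 5 and 8, and 97.5% and 94.1% in 53BP1-/- lines B and C. Neither mutant genotype overlapped with Lig4-/-. The same held for ends of every overhang. Those 20 nt or more inside made up 39.4% and 39.2% of all reads in the Lig4-/- lines. In the H2AX-/- lines they made up 94.5% and 90.9%, and in the 53BP1-/- lines 95.9% and 97.2%. The shift was thus not particular to short 5' overhangs. For these the differences of the means were 40.0 points for H2AX-/- and 41.8 points for 53BP1-/- (exact permutation p = 0.333 for both, adjusted p = 0.5). The smallest gaps were 36.7 and 37.2 points against 5.62 points at most within a genotype. Position entered the rule that chose the members, so the test is no separate support. With every structure given equal weight, whatever its reads, the differences were 14.8 and 20.7 points, and with a distance of 10 nt in place of 20 nt they were 24.2 and 23.9 points.

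How deep the members stopped also depends on the position in the rule and is described without a test. The median stop of the 3'-ending strand, weighted by reads, lay 102 and 98 nt inside in Lig4-/- lines A and B, 138 and 150 nt inside in H2AX-/- lines 5 and 8, and 136 and 130 nt inside in 53BP1-/- lines B and C. All 4 mutant lines thus lay deeper than both Lig4-/- lines. The other far ends moved the same way, with median stops of the deeper strand 63 and 69 nt inside in the Lig4-/- lines, 133 and 163 nt in the H2AX-/- lines, and 163 and 151 nt in the 53BP1-/- lines. The gap between genotypes lay in the deep ends. Members 100 nt or more inside held 5.48% and 5.39% of all reads in the Lig4-/- lines, 20.8% and 25.2% in the H2AX-/- lines, and 32.2% and 10.6% in the 53BP1-/- lines. Members between 20 and 99 nt held 4.47% and 6.28% in the Lig4-/- lines, 6.70% and 6.53% in the H2AX-/- lines, and 4.44% and 2.68% in the 53BP1-/- lines. In that nearer part the 53BP1-/- lines thus lay below both Lig4-/- lines, and the H2AX-/- lines lay above them, but the closest lines were nearly level. These were 53BP1-/- line B (4.44%) beside Lig4-/- line A (4.47%), and H2AX-/- line 8 (6.53%) beside Lig4-/- line B (6.28%). The 2 Lig4-/- lines lay further apart than either of these pairs. The split at 100 nt was chosen after the values were seen.

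Stops were unevenly spread. The 20 nt from 160 to 179 nt inside held 10.5% and 18.7% of member reads in the Lig4-/- lines, 37.9% and 41.8% in the H2AX-/- lines, 43.8% in 53BP1-/- line B and 19.8% in line C. Reads of all far ends, placed by their deeper strand, also peaked in these 20 nt in both H2AX-/- lines and 53BP1-/- line B. The peak was thus not particular to short 5' overhangs. In 53BP1-/- line B the most used stop of the 5'-ending strand was 168 nt inside, shared by 6 members with 10.1% of member reads. In H2AX-/- line 8 it was 169 nt inside, shared by 5 members with 13.2%. In H2AX-/- line 5 it was 176 nt inside, with 12.7%. Lig4-/- line A used a nearer stop most, 70 nt inside, where 1 member held 11.5% of member reads.

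**Figure D2:**
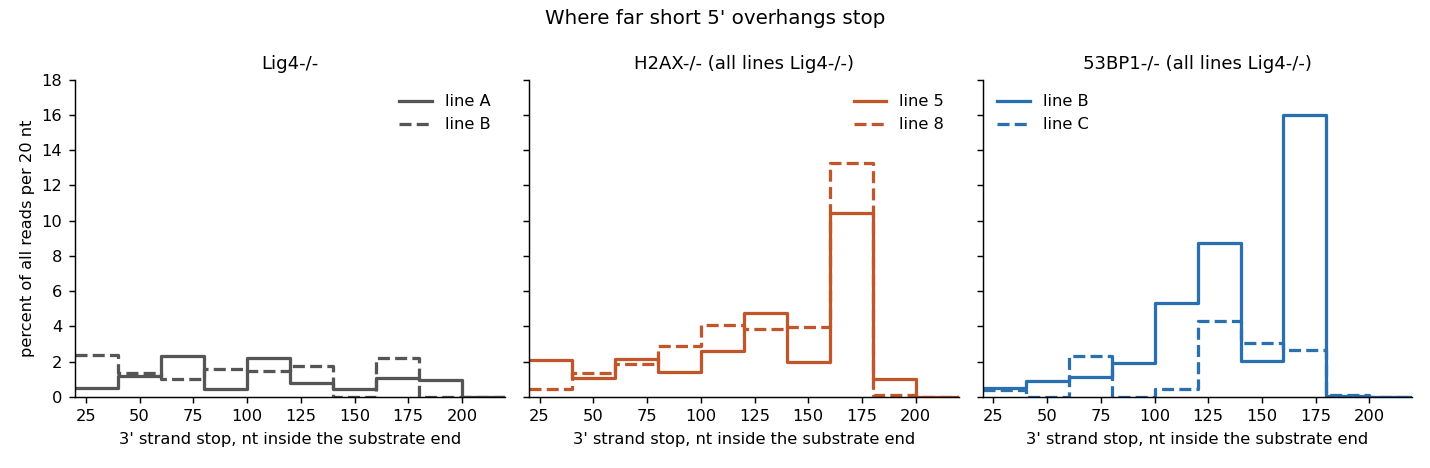
Reads of far short 5' overhangs as percent of all reads of the line (y axis) per 20 nt of distance of the 3'-strand stop from the cut (x axis), with 1 panel per genotype and 1 line style per cell line. Both H2AX-/- lines and 53BP1-/- line B peak in the bin of 160 to 179 nt, at 10.4%, 13.3% and 16.0% of reads, while no bin of the Lig4-/- lines is above 2.37%.

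The far side of this profile has a limit set by the tables. The loss of the 5'-ending strand and the loss of the 3'-ending strand of 1 end summed to at most 359 nt in every one of the 6 substrate tables, and to at most 311 nt in every one of the 5 Jk1 tables. For a short overhang both strands stop at nearly the same place, so the deepest member stopped 183 nt inside, although single strands of other ends reached 207 nt (5'-ending) and 216 nt (3'-ending). In the last 40 nt of summed loss before the limit lay 12.8% and 14.2% of member reads in the Lig4-/- lines, 40.0% and 40.1% in the H2AX-/- lines, and 39.2% and 20.6% in the 53BP1-/- lines. Deeper short overhangs were not measured, so the medians describe only ends within the limit.

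The overhangs were mostly of 1 to 4 nt, except in 53BP1-/- line C. Those lengths held 70.5% and 58.9% of member reads in Lig4-/- lines A and B, 70.6% and 76.7% in H2AX-/- lines 5 and 8, 57.8% in 53BP1-/- line B and 42.8% in line C. The most common length was 2 nt in Lig4-/- line A (26.5%), Lig4-/- line B (20.4%), H2AX-/- line 8 (34.3%) and 53BP1-/- line B (19.7%). It was 3 nt in H2AX-/- line 5 (30.4%) and 6 nt in 53BP1-/- line C (44.9%). The leading length thus differed between the lines of each mutant genotype. In H2AX-/- line 5, however, 1 end of 3 nt, 176 nt inside, held 12.6% of member reads. That is more than the lead of 3 nt over 2 nt, which held 19.3%. In Lig4-/- line A, 1 end of 2 nt, 109 nt inside, held 2243 of 32898 member reads. That too is more than the lead of 2 nt over 3 nt, which held 22.6% there.

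Split by length, overhangs of 1 to 4 nt held 7.02% and 6.87% of all reads in the Lig4-/- lines, 19.4% and 24.3% in the H2AX-/- lines, and 21.2% and 5.67% in the 53BP1-/- lines. Overhangs of 5 to 9 nt held 2.93% and 4.79% in the Lig4-/- lines, 8.11% and 7.39% in the H2AX-/- lines, and 15.4% and 7.59% in the 53BP1-/- lines. The longer overhangs were thus higher in all 4 mutant lines than in both Lig4-/- lines. The shorter ones were higher in both H2AX-/- lines and in 53BP1-/- line B, while line C lay below both Lig4-/- lines.

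At the edges of the rule, far overhangs of 1 nt held 0.988 to 6.04% of all reads over the 6 lines, and far blunt ends, just outside, held 4.98 to 11.3%. Far overhangs of 9 nt held 0.417% and 0.592% of reads in the Lig4-/- lines and 0.511 to 3.74% in the mutant lines. Those of 10 nt, just outside, held 0.00393% and 0.00468% in the Lig4-/- lines and 0.298 to 2.79% in the mutant lines. Short 5' overhangs with the 3'-strand stop 20 or 21 nt inside held 0 to 0.354% of reads, and those at 18 or 19 nt 0 to 0.464%, so few reads lay at the distance threshold.

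**Figure D3:**
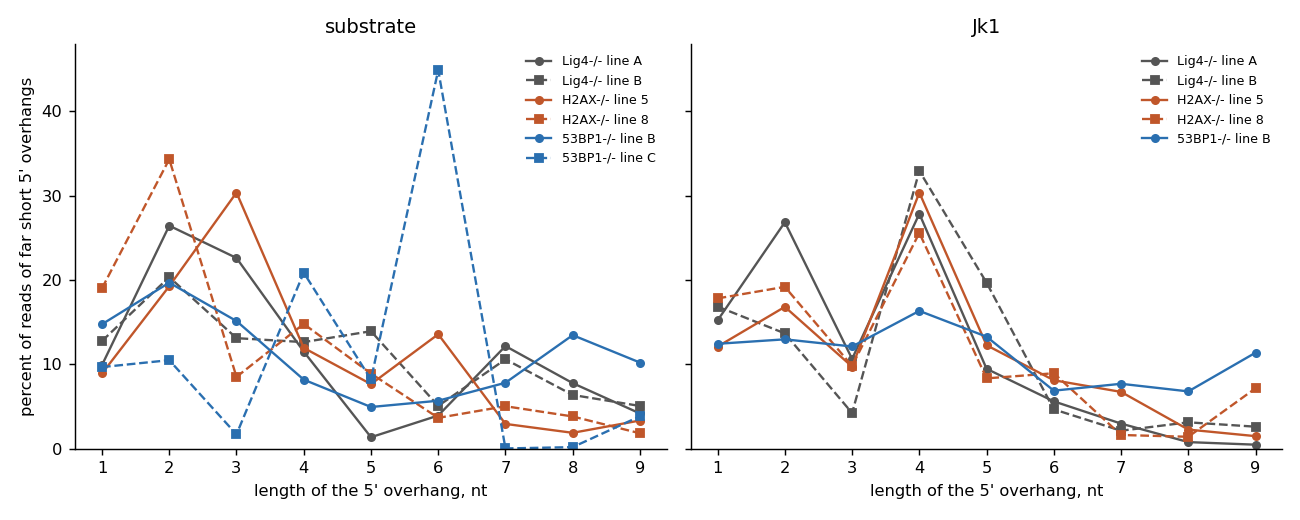
Reads of far short 5' overhangs by overhang length in nt (x axis) as percent of the reads of that class in a line (y axis), at the substrate on the left and at Jk1 on the right, 1 curve per line. At the substrate the most common length differs between lines (2, 3 or 6 nt), while at Jk1 4 nt is the most common length in all 5 lines. Single abundant ends carry part of these leads, among them a 4-nt end 135 nt inside at Jk1.

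Few single ends carried these shares, and they differed between lines of a genotype. Of the 455 members, 245 were listed in 1 table only and 5 in all 6. At 0.1% of reads or more, 176 were found in 1 line only and none in all 6. Both lines reached that level for 5 members in Lig4-/-, 11 in H2AX-/- and 5 in 53BP1-/-. Of 25 members that held 0.5% or more in a 53BP1-/- line, 20 were under 0.01% in the other line. In H2AX-/- this was so for 18 of 28 and in Lig4-/- for 3 of 5. The same counts were not made over all structures or over the other far ends. Whether members differ more between lines than other ends do was thus not tested.

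The number of members behind the reads also differed. Ordered by abundance, 50% of member reads lay in 8 and 16 members in Lig4-/- lines A and B, in 12 and 28 in H2AX-/- lines 5 and 8, and in 25 and 3 in 53BP1-/- lines B and C. The 10 most abundant members held 60.2% and 36.3% of member reads in the Lig4-/- lines, 45.9% and 30.6% in the H2AX-/- lines, 29.0% in 53BP1-/- line B and 94.0% in line C. Line C was the most concentrated and had the fewest members, 84, of which 26 had 1 read. Its table is the only one of the 6 that lists structures with 1 read. At the depth of the smallest table the expected numbers of members were 50.7 and 88.2 in the Lig4-/- lines, 106 and 174 in the H2AX-/- lines, and 163 and 44.5 in the 53BP1-/- lines, so the 53BP1-/- lines differed at equal depth too.

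**Figure D4:**
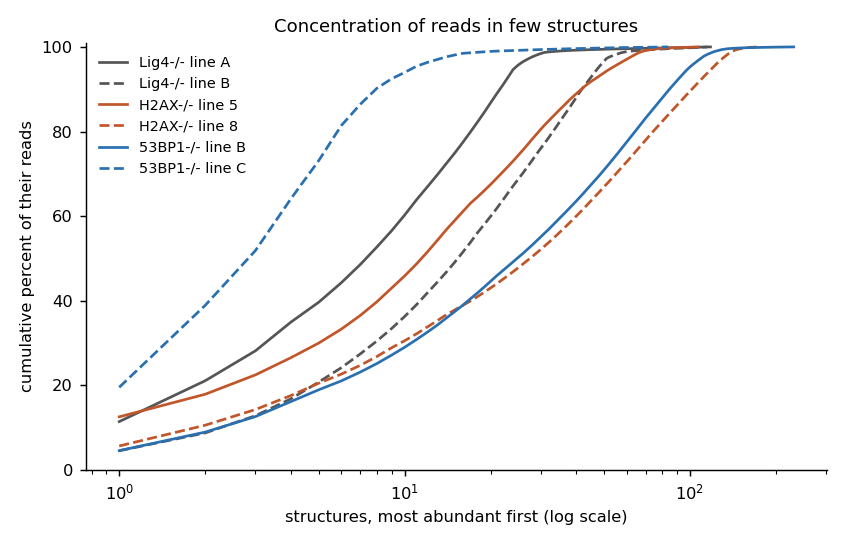
Cumulative percent of the reads of far short 5' overhangs (y axis, linear) against the number of structures taken in order of abundance (x axis, log scale), 1 curve per line. The curve of 53BP1-/- line C rises fastest, with 94.0% of its reads in 10 structures, and those of H2AX-/- line 8 and 53BP1-/- line B rise slowest there, at 30.6% and 29.0%.

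Taken one by one, 38 of the 327 members listed in the H2AX-/- or Lig4-/- lines were higher in both H2AX-/- lines than in both Lig4-/- lines. That is 11.6%, beside 5.45% of all structures and 4.60% of the other far ends. Their summed shares were 14.6% and 7.84% in H2AX-/- lines 5 and 8 against sums of 1.02% and 0.245% in the Lig4-/- lines. These members were chosen for being higher in H2AX-/-, so the direction of this contrast was fixed and is no separate support. In the other direction 19 members (5.81%, beside 18.3% of all structures and 9.02% of the other far ends) were lower in both H2AX-/- lines. The share over all structures includes the ends nearer than 20 nt, of which 74.6% were lower in both H2AX-/- lines. Some of the 19 rest on few reads, such as an 8-nt overhang 113 nt inside with 2 reads in each Lig4-/- line. The fewest reads listed in H2AX-/- lines 5 and 8, 2, make 0.00262% and 0.00274%, so such an end could go unlisted there. With 10 reads or more in a table, 14 of 245 members (5.71%) were lower and 38 (15.5%) higher. No share over all structures was computed at that minimum. Against 53BP1-/-, 29 of 363 members (7.99%, beside 4.53% of all structures and 4.49% of the other far ends) were higher in both 53BP1-/- lines and 25 (6.89%, beside 18.2% and 9.05%) were lower. The 29 higher members summed to 3.30% and 7.32% of reads in 53BP1-/- lines B and C, and 25 of them were listed in neither Lig4-/- line. These values too follow from choosing the 29 on the same reads and are no separate support. Only line C lists structures with 1 read, a share of 0.000786%. The fewest reads listed in Lig4-/- line B, 2, make 0.00156%. Some of the 29 rest on 1 read in line C, such as a 7-nt overhang 144 nt inside with 2 reads in line B. Such an end could go unlisted in Lig4-/- line B at the same share or above. With 10 reads or more required in a table, the count was 19 of 219 (8.68%), and no share over all structures was computed at that minimum. These counts depend on single lines. With 1 line left out the rule is looser for every structure, not only for members. No share over all structures was computed for the counts that follow, so they describe the dependence on lines only. Higher members numbered 149 of 293 (50.9%) without H2AX-/- line 5 and 89 of 239 (37.2%) without line 8. For 53BP1-/- they numbered 67 of 245 (27.3%) without line B and 197 of 329 (59.9%) without line C. Lower members numbered 75 of 284 (26.4%) without Lig4-/- line A and 71 of 290 (24.5%) without line B against H2AX-/-. Against 53BP1-/- they numbered 82 of 325 (25.2%) without Lig4-/- line A, 71 of 328 (21.6%) without line B, and 42 of 245 (17.1%) without 53BP1-/- line B.

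The member with the highest mean share in H2AX-/- was a 3-nt overhang with its 5'-ending strand 176 nt inside. It held 3.47% of reads in H2AX-/- line 5, 1.02% in 53BP1-/- line B, and 0.0370% in H2AX-/- line 8. Its share was 0.00696% and 0.0367% in Lig4-/- lines A and B and 0.00471% in 53BP1-/- line C. H2AX-/- line 8 and Lig4-/- line B were thus nearly level, and the genotype difference of 1.73 points was 0.0152 points without line 5.

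The most widely found member was a 2-nt overhang 109 nt inside, the only one with 10 reads or more in all 6 tables. It held 0.678% and 0.0125% of reads in Lig4-/- lines A and B, 0.907% and 1.55% in H2AX-/- lines 5 and 8, and 0.768% and 0.201% in 53BP1-/- lines B and C. Both H2AX-/- lines were above both Lig4-/- lines, and the 53BP1-/- lines overlapped with them. A 7-nt overhang 144 nt inside held 0.367% and 0.922% in the H2AX-/- lines, was listed in neither Lig4-/- line, and had 2 reads and 1 read in the 53BP1-/- lines.

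Of the 5 members with the highest mean shares in 53BP1-/-, 3 were 6-nt overhangs that were highest in line C. The 6-nt overhang 120 nt inside held 0.544% and 1.63% in 53BP1-/- lines B and C, 0.402% in H2AX-/- line 5, and at most 0.00274% in the other 3 lines. The 6-nt overhang 164 nt inside held 0.334% and 1.72% in the 53BP1-/- lines and was listed in no other line. The 6-nt overhang 124 nt inside held 2.59% in line C but 3 reads in line B. A 4-nt overhang 148 nt inside held 2.57% in line C and was not listed in line B. These last 2 ends held 19.6% and 19.4% of the member reads of line C. A 1-nt overhang 170 nt inside held 1.68% in 53BP1-/- line B and 0.474% in H2AX-/- line 8, and at most 0.00312% elsewhere. A 1-nt overhang 123 nt inside was highest in the same 2 lines, with 0.633% and 0.288%, and held at most 0.0105% elsewhere.

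Several other named members were abundant in 1 line of their genotype only. In H2AX-/-, a 2-nt overhang 169 nt inside held 1.81% of reads in line 8 and was not listed in line 5. A 6-nt overhang 153 nt inside held 1.47% in line 5 and was not listed in line 8. In Lig4-/-, a 3-nt overhang 70 nt inside held 1.14% in line A and 0.00312% in line B. A 7-nt overhang 176 nt inside held 0.960% in line A and 0.00312% in line B, and an 8-nt overhang 155 nt inside held 0.703% and 0.0211%. A 2-nt overhang 117 nt inside held 0.432% and 0.460% in Lig4-/- lines A and B, and so was similar in both. It held 0.160% and 0.244% in the H2AX-/- lines, 0.00118% in 53BP1-/- line B, and was not listed in line C.

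**Figure D5:**
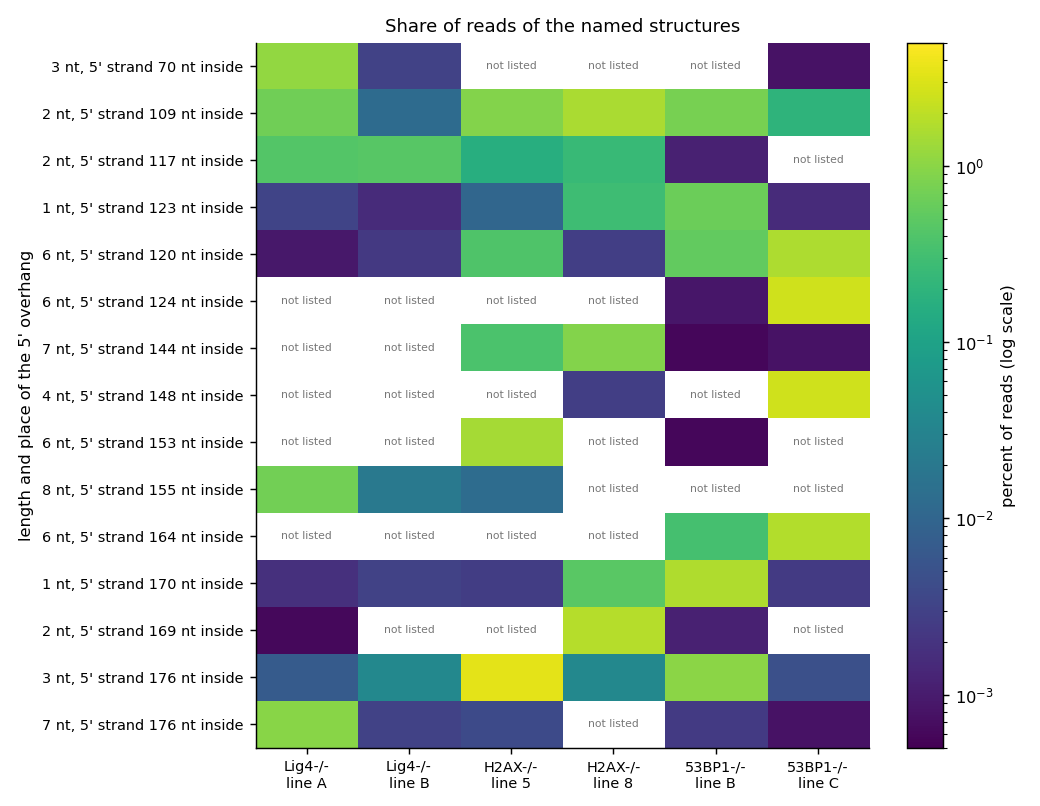
Share of reads (colour, percent on a log scale) of the 15 structures described by name, with 1 row per structure ordered by distance from the cut and 1 column per line; white cells are structures not listed in that line. Bright cells stand mostly alone in their row within a genotype, and only the 2-nt overhang 109 nt inside is above 0.01% in all 6 columns.

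Lists of members overlapped both within and across genotypes, to very different degrees. Among members with 10 reads or more, H2AX-/- line 8 and 53BP1-/- line B shared 58, which is 38.2% and 38.7% of their lists and the highest number of any pair. These lists were also the longest, with 152 and 150 members against 21 to 76 in the other lines. The number shared depends on list length, and the overlap over all structures was not computed. The other pairs across genotypes shared 12 to 30 members, except those with 53BP1-/- line C, which shared 2 to 6. H2AX-/- lines 5 and 8 shared 29 (38.2% and 19.1% of their lists), Lig4-/- lines A and B shared 14 (34.1% and 23.0%), and 53BP1-/- lines B and C shared 8 (5.33% and 38.1%). Members with fewer than 10 reads in a table held 0.248 to 1.04% of its member reads. Of these low entries 45.4% had 100 reads or more in another of the 6 tables, as did 46.7% of the entries with 10 reads or more.

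The same class was measured at Jk1, a segment of the immunoglobulin kappa locus that RAG cuts in the same cells, in 5 of the 6 lines. There 430 distinct structures met the rule. They held 8.21% and 13.3% of reads in Lig4-/- lines A and B, 38.8% and 38.5% in H2AX-/- lines 5 and 8, and 35.1% in 53BP1-/- line B, so the mutant lines again lay above both Lig4-/- lines. Against the substrate the share of all reads was lower at the substrate in 3 of 5 lines (mean difference -3.29 points ± 5.60, SD, n = 5, exact paired permutation p = 0.375).

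Among far ends the class was smaller at the substrate in 5 of 5 lines. At Jk1 it held 35.6% and 30.6% of far ends in the Lig4-/- lines, 45.9% and 46.8% in the H2AX-/- lines, and 41.8% in 53BP1-/- line B. The mean difference, substrate minus Jk1, was -8.70 points ± 6.43 (SD, n = 5), with an exact paired permutation p = 0.0625, the smallest that 5 pairs allow (two-sided, adjusted p = 0.125 over 2 measures). With only ends inside the smaller Jk1 limit of 311 nt on the summed loss, the difference ran from -21.9 to -1.01 points, and the substrate was again the lower one in all 5 lines. The most common overhang length at Jk1 was 4 nt in all 5 lines, at 16.4 to 32.9% of the reads of the class, whereas at the substrate 4 nt led in none of them. In Lig4-/- lines A and B, H2AX-/- line 5 and 53BP1-/- line B, 1 and the same 4-nt end, 135 nt inside, was the most abundant. It held 10.7%, 9.87%, 9.11% and 5.38% of the reads of the class. That is more than the lead of 4 nt in Lig4-/- line A (27.9% against 26.9% for 2 nt) and 53BP1-/- line B (16.4% against 13.3% for 5 nt).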

How the data were processed

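Per the labels, genomic DNA was ligated into hairpins, bisulfite-treated, amplified and sequenced as MiSeq pairs. The authors deposited a table per group of libraries with a position, an overhang and a raw read count per structure. The position and overhang columns (other than counts) carry no definition in the deposited tables. The position was read as the stop of the 5'-ending strand and negative overhangs as 5' overhangs, with the sign from the KpnI table. Distances count from position 2, the lowest position, set after seeing the data. The sources used here name no aligner, filter or build; no sequence or coordinate is printed.

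Tables at the substrate (6), Jk1 (5) and KpnI (1) were used, and 2 tables repeating the values of others were not. Shares were computed without a filter on low counts, with scipy 1.17.1, numpy 2.4.6 and pandas 2.3.3 in Python 3.11.15 (matplotlib 3.10.9 for figures), given Clopper-Pearson 95% intervals, and compared over lines by exact permutation. The arithmetic was tested on simulated data. Structures named were the 5 with the highest mean share per genotype, those listed in all 6 tables, and the 3 largest rises and falls of non-overlapping members per comparison. A structure not listed counted as 0 reads; the lowest count listed was 2, or 1 in 53BP1-/- line C. Members and lists were chosen with earlier results of these data known. Alternatives varied weights, read minimums, thresholds, overhang windows, runs and lines.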

Additional observations from a re-analysis of the deposited data

How the results depend on the processing

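No paired analysis was possible because, between genotypes, the tables pool their libraries and the lines share no replicate number; only substrate and Jk1 could be paired, line by line. The 53BP1-/- share of all reads no longer lay on 1 side in all 4 pairs of lines with each structure counted once (4.81 points), without the most abundant member (13.2), at 10 nt (10.5) or with overhangs of 1 to 4 nt (6.47). For H2AX-/- all 14 alternatives kept all pairs on 1 side. Among these, Fisher's tests and a minimum of 2 reads could not change the shares. The former use the same shares, and the H2AX-/- and Lig4-/- lines list no structure under 2 reads. The H2AX-/- difference in the share of all reads was 6.88 points with each structure counted once, 13.8 without the 10 most abundant structures, 15.8 at 10 nt, 14.9 for overhangs of 1 to 4 nt, 15.8 for 2 to 9 nt and 3.89 for 5 to 9 nt. Its difference in the share of far ends, which overlapped from the start, was 0.367 at 40 nt, 0.293 at 100 nt (added after seeing the data) and -1.48 for 5 to 9 nt. In 4 of the 14 alternatives, however, both H2AX-/- lines lay above both Lig4-/- lines on that scale. These were 10 nt (7.90 points), overhangs of 1 to 4 nt (5.99) and 2 to 9 nt (3.05), and without the 10 most abundant structures (3.75). For the far share of short 5' overhangs the H2AX-/- and 53BP1-/- differences were 14.8 and 20.7 points with each structure counted once, 32.4 and 34.5 without the 10 most abundant, 24.2 and 23.9 at 10 nt, 28.2 and 32.0 for 5 to 9 nt, and 45.4 and 52.9 at 100 nt. For H2AX-/- it was 45.0 for 1 to 4 nt and 36.9 for 2 to 9 nt, and for 53BP1-/- 46.4 at 40 nt. With 10 reads or more, 19 of 219 members (8.68%) were higher in 53BP1-/-, and no share over all structures was computed at that minimum. Leaving out each line in turn gave 16.7 to 20.9 points (all reads), 1.64 to 7.39 (far ends) and 37.2 to 42.8 (far share) for H2AX-/-, and 2.45 to 25.8, -13.9 to 10.7 and 39.0 to 44.6 for 53BP1-/-. Counts then ran from 40 to 149 higher (14.1 to 50.9% of members) and 25 to 75 lower (8.87 to 26.4%) for H2AX-/-. For 53BP1-/- they ran from 33 to 197 higher (10.1 to 59.9%) and 25 to 82 lower (7.60 to 25.2%). With 1 line against 2 the rule is looser for every structure, and no share over all structures was computed for these counts. The cause of these shifts was not tested. Fisher's exact tests on reads passed 0.05 in all 4 pairs of each of the 6 comparisons (largest p = 0.0165), also where the pairs differed in direction. These tests take reads as independent.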
